A study of Macaca mulatta with 34 samples.

Results

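Purkinje cell genes are described here through 8 genes that mark the Purkinje cell, CALB1, SLC1A6, DNER, PCP2, PCP4, CA8, RORA and PPP1R17. The members were chosen by symbol, and their Ensembl macaque identifiers were found in all 22 count tables of deep cerebellar nuclei (DCN), among 34847 gene identifiers. All 8 passed the filter on low counts in every comparison. Total RNA was sequenced from the DCN of rhesus macaques whose nuclei had been injected under magnetic resonance guidance. In Study 1 the groups were AAV.miS1, an adeno-associated virus (AAV) vector with an artificial microRNA aimed at ATXN1 (n = 6), and vehicle (n = 4). In Study 2 the groups were empty capsid, a viral shell without vector genome, and 3 vectors named intmiS1, miSCA7Stuffer and StufferOnly (n = 3 each). The series names intmiS1 and the miSCA7 and stuffer vectors as redesigned cargo configurations, and the purpose of Study 2 was to characterise the immune responses to them, while Study 1 looked for the cause of the toxicity seen with AAV.miS1. Age, dose, time after injection and the promoter of each vector are not stated in the labels. Each library carries an animal identifier of its own.

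Purkinje cells are the sole output neurons of the cerebellar cortex. Their cell bodies lie in the cortex and their inhibitory axons end on the neurons of the deep nuclei, so tissue of the nuclei holds their terminals and, where cortex is included, their cell bodies. The 8 genes cover several functions of the cell. CALB1 encodes the calcium buffer calbindin, PCP4 a small protein that binds calmodulin, and CA8 a carbonic anhydrase-related protein without enzyme activity that binds the IP3 receptor. SLC1A6 encodes EAAT4, the glutamate transporter of Purkinje cell spines. DNER encodes a transmembrane Notch ligand that other neurons carry as well. PCP2 encodes a modulator of G protein signalling, PPP1R17 the G-substrate, a protein phosphatase inhibitor, and RORA a nuclear receptor that Purkinje cells need to mature.

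Some libraries stood apart before any gene was tested. Counts in genes ranged from 2049685 to 4810852 in Study 1, except for 87741 in vehicle replicate 2, and from 4858179 to 39792653 in Study 2. In vehicle replicate 2, CALB1 therefore rested on 3 reads and SLC1A6 on 2, with exact (Clopper-Pearson) 95% intervals of 7.05 to 99.9 and 2.76 to 82.3 RPM (reads scaled to the total of the library) for counting error only. AAV.miS1 replicate 1 was the lowest of its group for all 8 members, and its summed level of 20 general neuronal genes was 227 CPM (counts scaled to the library size after TMM), against 1636 to 8397 in the other 5 libraries. Replicate 1 of miSCA7Stuffer was the highest of its group for all 8 members, and it held 1.64 RPM of vector reads, against 349 and 257 in the other 2 libraries of that group. Empty capsid libraries held 0.151 to 0.281 RPM of vector reads. Only reads on a reference sequence whose name holds miS1 and Stfr were counted as vector reads. The intmiS1 libraries, which also received a vector, held 0.372 to 1.44 RPM of them. Whether a low value in a library means that little vector was received was not tested. CALB1 had 26.5% of its 1074 stranded reads on the strand opposite to the gene, while the other 7 members had at most 3.42% there. The reads of Study 1 were counted on the gene's strand, but the Study 2 tables followed counts made without strand, so CALB1 values of Study 2 include such reads. In the stranded tables these reads came to 2.91 to 10.9 RPM with AAV.miS1 and 0 to 8.81 with vehicle, and to 9.28 and 11.3 in 2 intmiS1 libraries. Genes that mark DCN projection neurons summed to 197 to 330.2 CPM in vehicle and 260 to 292 CPM in empty capsid libraries, with LMX1A at 0 in all vehicle libraries. Granule cell genes, which mark the cerebellar cortex, summed to 1893 to 4434 CPM and 1602 to 2158 CPM in the same groups.

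AAV.miS1 was compared with vehicle to ask how Purkinje cell transcripts stood in the tissue that received the vector linked to toxicity. CALB1 and SLC1A6 fell, and the estimates of the other 6 members were also below 0 but did not pass the test. Estimates were below 0 in 48.7% of all genes tested. A gene was called where the adjusted p of edgeR's quasi-likelihood test, with Benjamini-Hochberg adjustment over all genes tested, was under 0.05. By that rule 2 of the 8 members were lower, against 0.284% of the 13383 genes tested. The median log2 fold change of the members was -1.19, and that of all genes was 0.02. In bulk tissue, fewer Purkinje cells and less RNA per Purkinje cell cannot be told apart. Nor can they be told apart from less cortex in the sample or more RNA from other cells.

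**Figure D1:**
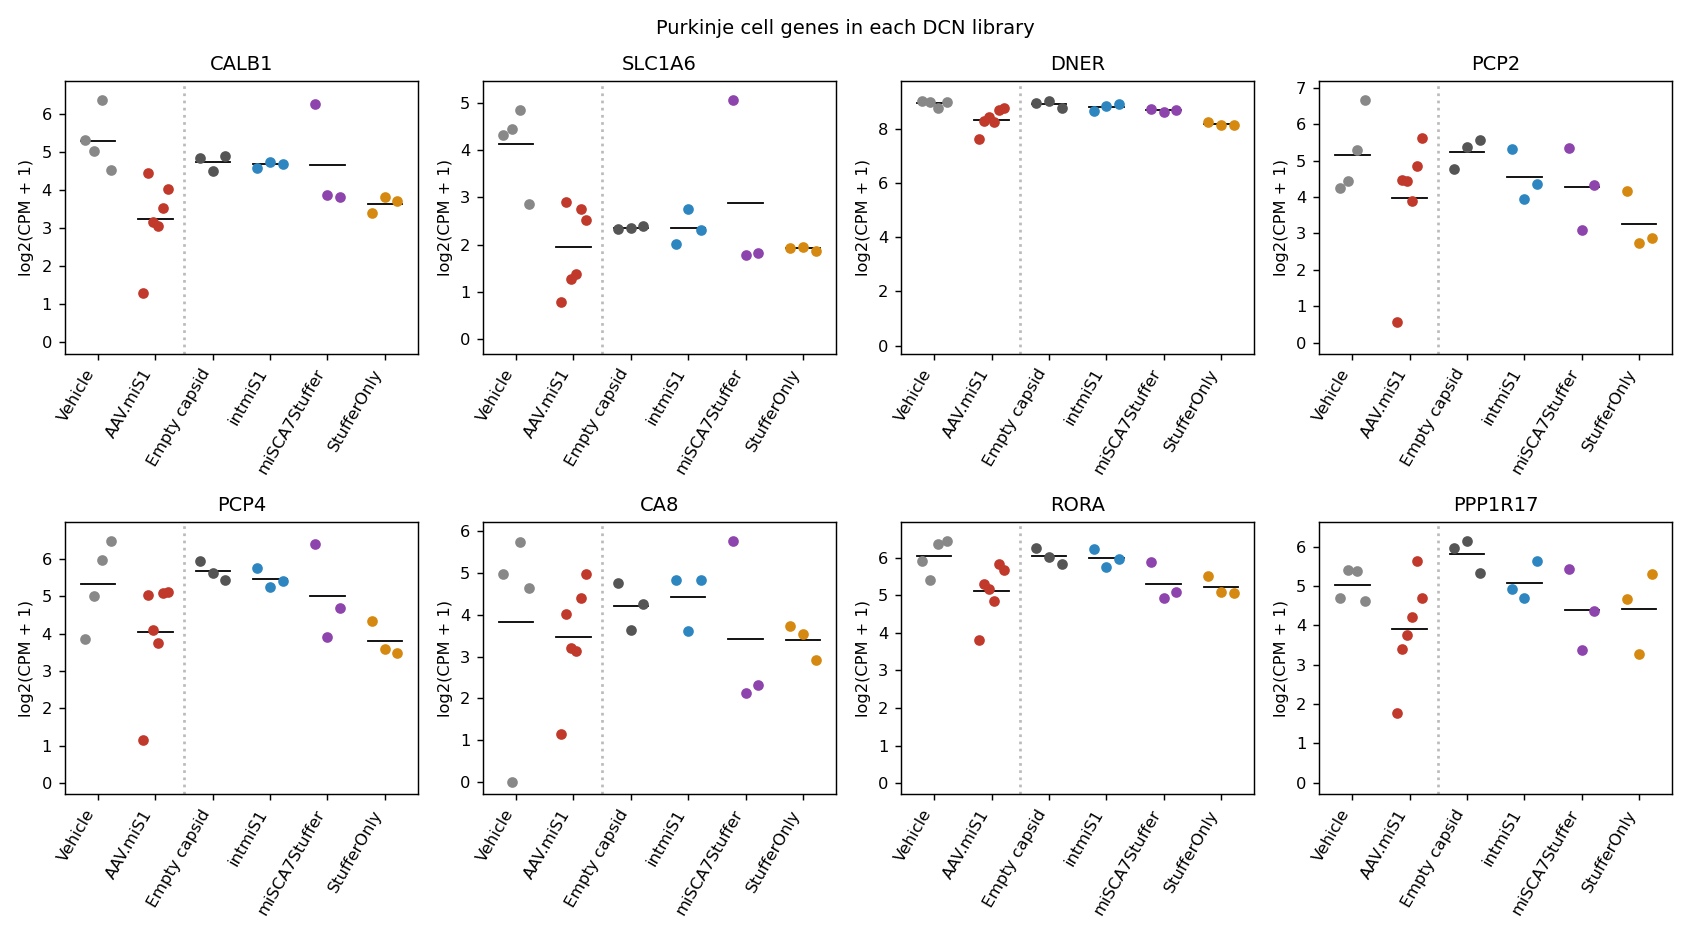
Level of each of the 8 Purkinje cell genes in every DCN library, as log2(CPM + 1) on the y axis, with 1 point per library, a line at the group mean of the log values and a dotted line between Study 1 and Study 2. AAV.miS1 replicate 1 is the lowest point of its group in every panel, replicate 1 of miSCA7Stuffer the highest of its group, and the 3 StufferOnly points of DNER lie below all points of the other Study 2 groups.

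CALB1 was at 38.5, 31.2, 80.4 and 21.9 CPM in the 4 vehicle libraries, and between 1.46 and 20.5 CPM with a median of 9.19 in the 6 AAV.miS1 libraries. Every AAV.miS1 library lay below every vehicle library. CALB1 fell by 2.11 on the log2 scale (SE 0.56, adjusted p = 0.0467), to 24.4% of the vehicle mean. SLC1A6 was at 19.1, 20.8, 27.8 and 6.30 CPM with vehicle, and between 0.732 and 6.50 CPM with a median of 3.19 with AAV.miS1. The groups met only at vehicle replicate 4, which lay just under the highest AAV.miS1 library. SLC1A6 fell by 2.38 on the log2 scale (SE 0.60, adjusted p = 0.0399), to 18.8% of the vehicle mean. Both calls were lost when any 1 of the 4 vehicle libraries or AAV.miS1 replicate 3 or 4 was left out, with adjusted p between 0.0271 and 0.215 for CALB1 and between 0.0190 and 0.185 for SLC1A6 over all such fits, while both estimates stayed below 0.

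Study 1 libraries fell into 2 sets by their share of unmapped reads, and the sets held unequal parts of the groups. Within the set under 15% unmapped reads, 1 vehicle and 4 AAV.miS1 libraries gave log2 fold changes of -2.06 for CALB1 and -2.87 for SLC1A6, and a single vehicle library cannot show whether the calls hold. Within the other set, 3 vehicle and 2 AAV.miS1 libraries gave -1.96 (adjusted p = 0.0861) and -1.71 (adjusted p = 0.260). With the set as a term in the fit of all 10 libraries, the values were -1.97 (adjusted p = 0.140) and -2.24 (adjusted p = 0.104), so neither call held in that fit. Both estimates were below 0 in all of these fits.

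DNER, the Notch ligand, was at 532, 509, 443 and 511 CPM with vehicle and between 198 and 435 CPM with a median of 332 with AAV.miS1. Its groups did not overlap, as for CALB1, so that 2 of 8 members were lower in every library, against 2.88% of all genes tested. Both gaps were narrow, at 435 against 443 CPM for DNER and 20.5 against 21.9 CPM for CALB1. For CALB1, vehicle replicate 2 rested on 3 reads. The log2 fold change of DNER was -0.57 (SE 0.21, adjusted p = 0.117). RORA, the nuclear receptor, was at 59.7, 41.5, 81.6 and 86.2 CPM with vehicle and between 12.9 and 56.5 CPM with a median of 37.0 with AAV.miS1. The 2 highest AAV.miS1 libraries lay above the lowest vehicle library and below the other 3. Its log2 fold change was -0.95 (SE 0.35, adjusted p = 0.119).

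PCP2 and PCP4, which modulate G protein and calmodulin signalling, varied widely among the vehicle libraries. PCP2 was at 18.2, 20.8, 38.0 and 99.8 CPM with vehicle and between 0.488 and 48.7 CPM with a median of 21.0 with AAV.miS1. PCP4 was at 13.4, 31.2, 61.9 and 88.2 CPM with vehicle and between 1.22 and 33.9 CPM with a median of 24.004 with AAV.miS1. Both genes were highest in vehicle replicate 4 and lowest in AAV.miS1 replicate 1, and the groups overlapped. The log2 fold changes were -1.14 (SE 0.76, adjusted p = 0.337) for PCP2 and -1.28 (SE 0.70, adjusted p = 0.255) for PCP4. Without vehicle replicate 4 they were -0.32 and -0.80.

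CA8 was at 30.3, 0, 52.3 and 23.9 CPM with vehicle and between 1.22 and 30.5 CPM with a median of 11.6 with AAV.miS1. The 0 belongs to vehicle replicate 2, where a count of 0 allows up to 34.2 RPM, so it does not separate that library from the rest. The log2 fold change of CA8 was -1.23 (SE 0.66, adjusted p = 0.2503). PPP1R17, the phosphatase inhibitor, was at 25.1, 41.5, 40.5 and 23.5 CPM with vehicle and between 2.44 and 49.0 CPM with a median of 14.98 with AAV.miS1. Its highest value of Study 1 was an AAV.miS1 library, replicate 5, and its log2 fold change was -0.69 (SE 0.62, adjusted p = 0.472).

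Marker lists of other cell types were counted in the same libraries. Of 20 general neuronal genes 1 was lower and 19 had estimates below 0, with a median log2 fold change of -0.91. None of the 14 granule cell genes was called by edgeR, all 14 estimates were below 0, and their median was -1.49. Of 12 tested identifiers of oligodendrocyte genes none was called, and their median was -0.62. MAG, a gene of that list, had no identifier, so the 12 identifiers come from fewer genes. Higher calls made up 7.22% of all genes tested in this comparison. Of 18 microglia and macrophage genes 15 were higher, with a median of 3.42, and their summed level ran from 1223 to 25988 CPM with AAV.miS1 against 614 to 1682 CPM with vehicle. Of 8 tested T cell genes 3 were higher, and CD8B, LCK and TRAT1 were at 0 in all vehicle libraries. The part of these lists in the lower Purkinje cell values was not tested.

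StufferOnly was compared with empty capsid in a fit shared with miSCA7Stuffer. DNER fell, and the other 7 estimates were below 0 with SEs of 0.27 to 0.95, as were 48.6% of the estimates of all genes. The count was 1 of 8 members lower, against 3.81% of the 20882 genes tested. The median log2 fold change of the members was -1.04, against 0.02 for all genes. In 7 of the 8 members, all but CA8, every StufferOnly library lay below every empty capsid library, which was the case for 22.2% of all genes tested. It was also the case for 14 of 20 general neuronal genes and 12 of 23 further genes known from Purkinje cells. Of 12 identifiers of oligodendrocyte genes 10 were so separated, and of 14 granule cell genes 4.

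DNER was at 503, 529 and 436 CPM with empty capsid and at 308, 284 and 281 CPM with StufferOnly. All StufferOnly libraries were close together and below all others. DNER fell by 0.75 on the log2 scale (SE 0.12, adjusted p = 0.0181), to 59.4% of the empty capsid mean. Leaving out any 1 library of these 2 groups other than StufferOnly replicate 1 ended this call, with adjusted p from 0.0321 to 0.0907 over these fits. Other neurons carry DNER as well, and whether the fall lies in Purkinje cells was not tested.

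None of the 3 calcium genes passed the test for StufferOnly. CALB1 was at 27.6, 21.4 and 28.5 CPM with empty capsid and at 9.44, 13.1 and 11.997 CPM with StufferOnly, a gap of more than the spread within either group. Its log2 fold change was -1.17 (SE 0.62, adjusted p = 0.229). PCP4 was at 60.5, 48.0 and 42.4 CPM with empty capsid and at 19.2, 11.1 and 10.2 CPM with StufferOnly. The highest StufferOnly library of PCP4 was well under the lowest empty capsid library, and the log2 fold change was -1.90 (SE 0.60, adjusted p = 0.0646). CA8 was at 26.2, 11.4 and 18.0 CPM with empty capsid and at 12.3, 10.6 and 6.50 CPM with StufferOnly. Here the groups overlapped, and the log2 fold change was -0.92 (SE 0.95, adjusted p = 0.527).

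Among the remaining members, SLC1A6 was low in both groups of this comparison, at 4.01, 4.14 and 4.25 CPM with empty capsid and 2.84, 2.88 and 2.67 CPM with StufferOnly. The groups were tight and did not overlap, but the shared fit gave a log2 fold change of -0.56 with SE 0.88 (adjusted p = 0.683). PCP2 was at 26.4, 40.7 and 46.1 CPM with empty capsid and at 17.0, 5.71 and 6.31 CPM with StufferOnly, with a log2 fold change of -1.96 (SE 0.63, adjusted p = 0.0667). RORA was at 76.2, 63.8 and 55.8 CPM with empty capsid and at 45.2, 33.3 and 32.2 CPM with StufferOnly, with a log2 fold change of -0.82 (SE 0.27, adjusted p = 0.0742). For both genes StufferOnly replicate 1 was the highest of its group. PPP1R17 was at 61.7, 69.7 and 39.2 CPM with empty capsid and at 24.3, 8.73 and 38.6 CPM with StufferOnly. Its groups nearly met, and the log2 fold change was -1.25 (SE 0.62, adjusted p = 0.199).

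How many members passed here differed between fits, and the cause was not tested. The shared fit includes miSCA7Stuffer, whose replicate 1 stood apart. With that 1 library left out, an alternative chosen after the data were seen, 7 of 8 members were lower, all but PPP1R17, against 17.3% of all genes. Because that library was the highest of its group for all 8 members, leaving it out narrows their range in that group by construction. The calls and adjusted p of this fit are therefore descriptions. In that fit the log2 fold changes were -1.28 for CALB1 (adjusted p = 0.000613), -0.67 for SLC1A6 (0.0382), -0.86 for DNER (0.000581), -2.05 for PCP2 (0.0130), -1.999 for PCP4 (0.00153), -1.03 for CA8 (0.0383), -0.93 for RORA (0.00400) and -1.35 for PPP1R17 (0.0634). With only the 2 groups compared, 5 of 8 were lower (CALB1, DNER, PCP2, PCP4 and RORA), against 12.6% of all genes. DESeq2 called 4 members, against 9.34%, and gave no adjusted p for SLC1A6, so that member could not be called. The estimates stayed below 0 for every member in each of these fits.

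**Figure D2:**
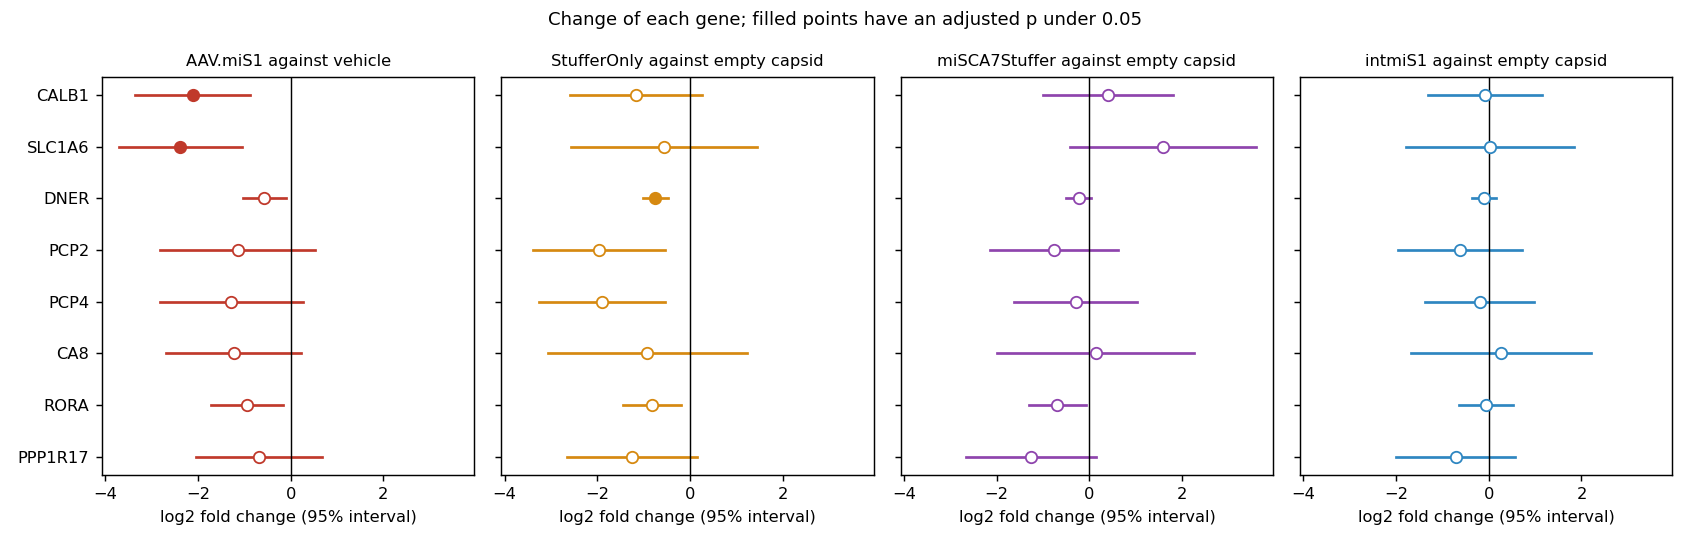
Log2 fold change of each Purkinje cell gene (x axis, with its 95% interval) for each vector against its own control; filled points passed the edgeR test. CALB1 and SLC1A6 are filled for AAV.miS1 and DNER for StufferOnly, and no point is filled for miSCA7Stuffer or intmiS1.

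In the same comparison 19 of 20 general neuronal genes had estimates below 0 and none was called by edgeR, with a median log2 fold change of -0.90. Of 12 identifiers of oligodendrocyte genes 9 were lower, with a median of -1.005, against the 3.81% of all genes lower. The 14 granule cell genes had a median of 0.13 with none called. Their estimates ran from -0.78 to 3.06, with 6 below 0 and 8 above. They summed to 1045 to 2030 CPM, against 1602 to 2158 CPM with empty capsid. Of 5 tested DCN projection neuron genes 1 was lower, against the same 3.81%. All 5 had estimates below 0, with a median of -0.85. Of 18 microglia and macrophage genes 16 were higher, against 11.6% of all genes, and their summed level was 5701 to 9001 CPM against 537 to 638 CPM with empty capsid. Of 12 T cell genes 8 were higher. The part of these lists in the lower Purkinje cell values was not tested.

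For miSCA7Stuffer the members depended on replicate 1. With all 3 libraries, edgeR called 0 of 8 members in either direction against empty capsid, and 0.00479% of all genes. At an unadjusted p under 0.05 there was 1 member lower, against 8.55% of all genes. DESeq2 called none, and gave no adjusted p for SLC1A6. Of the 8 estimates 5 were below 0, against 45% of those of all genes, with a median of -0.26 against 0.07. Without replicate 1, 6 of 8 members were lower, against 16.8% of all genes. That library was singled out after the data were seen. It was the highest of its group for all 8 members, so leaving it out lowers their estimates by construction. The calls and adjusted p without it, here and below, are therefore descriptions.

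CALB1 was at 75.5 CPM in replicate 1 and at 13.5 and 13.2 CPM in replicates 2 and 3. Replicate 1 lay above every empty capsid library and the other 2 lay below, and CA8 and SLC1A6 behaved alike, at 53.5, 3.40 and 4.02 CPM and at 32.1, 2.44 and 2.56 CPM. Their log2 fold changes over all 3 libraries were 0.40 (SE 0.61) for CALB1, 0.14 (SE 0.93) for CA8 and 1.59 (SE 0.88) for SLC1A6. The same quantity without replicate 1 was -0.99 (adjusted p = 0.00434) for CALB1, -2.35 (adjusted p = 0.00292) for CA8 and -0.76 (adjusted p = 0.0422) for SLC1A6.

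PCP4 was at 84.1, 13.9 and 24.6 CPM in replicates 1 to 3, RORA at 58.8, 29.5 and 33.0 CPM, and PPP1R17 at 42.3, 9.38 and 19.7 CPM. Replicates 2 and 3 of all 3 genes lay below every empty capsid library. The log2 fold changes were -0.30 (SE 0.58) for PCP4, -0.69 (SE 0.27) for RORA and -1.26 (SE 0.62) for PPP1R17, and without replicate 1 they were -1.42 (adjusted p = 0.0134), -1.09 (adjusted p = 0.00371) and -2.004 (adjusted p = 0.0297). PCP2, at 40.02, 7.57 and 19.3 CPM, had a log2 fold change of -0.76 (SE 0.61) with replicate 1 and -1.52 (adjusted p = 0.0666) without it.

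DNER was the member with the least spread in this group, at 429, 401 and 422 CPM. All 3 libraries lay below all empty capsid libraries, which held for 1 of 8 members and for 12.7% of all genes. Its log2 fold change was -0.23 (SE 0.12, adjusted p = 0.267), with a 95% interval of -0.49 to 0.04, and without replicate 1 it was -0.28 (adjusted p = 0.105).

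Replicate 1 of miSCA7Stuffer also differed in its other cell markers. Its general neuronal sum was 7169 CPM, against 1107 and 1304 in replicates 2 and 3. Its microglia and macrophage sum was 473 CPM, below all empty capsid libraries, against 5153 and 5728. Its granule cell sum was 3914 CPM, against 2140 and 2312. The part of these differences in the Purkinje cell values was not tested.

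Set against StufferOnly directly, miSCA7Stuffer had 0 of 8 members called by edgeR, and 0% of all genes. At an unadjusted p under 0.05, 4 members were higher (CALB1, SLC1A6, DNER and PCP4), against 4.8% of all genes. DESeq2 called DNER alone, against 1.6% of all genes, and gave no adjusted p for SLC1A6. DNER was higher in every miSCA7Stuffer library, as was CALB1, with log2 fold changes of 0.52 (SE 0.12, adjusted p = 0.243) and 1.57 (SE 0.63, adjusted p = 0.458). Such a separation was seen for 2 of 8 members and for 6.24% of all genes. For CALB1 it was narrow, at 13.16 CPM in the lowest miSCA7Stuffer library and 13.10 CPM in the highest StufferOnly library, and without replicate 1 of miSCA7Stuffer its log2 fold change was 0.29 (adjusted p = 0.422). Without the same library, the log2 fold changes of PCP2 and PCP4 went from 1.20 to 0.53 and from 1.60 to 0.58, and the estimates of SLC1A6, CA8 and RORA changed sign.

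The intmiS1 libraries could not be separated from empty capsid by any member. EdgeR called 0 of 8 members and 0% of the 21501 genes tested. No member had an unadjusted p under 0.05, against 4.51% of genes lower and 4.01% higher. DESeq2 called no member either, and gave no adjusted p for SLC1A6. The median log2 fold change of the members was -0.09, against 0.01 for all genes. In all 8 members the intmiS1 and empty capsid libraries overlapped, while 10.7% of all genes were lower and 9.51% higher in every library. The intervals were wide for most members, so a missing call does not show equal levels. Replicates 1 and 2 of intmiS1 came from STAR, with 5169866 and 4858179 counts. All empty capsid libraries came from featureCounts with 28496977 to 39792653 counts, so group is partly mixed with depth and kind of counting.

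DNER had the narrowest interval. It was at 412, 468 and 487 CPM with intmiS1, inside or just under the empty capsid range, and its log2 fold change was -0.10 (95% interval -0.37 to 0.16). RORA was at 74.0, 52.7 and 61.8 CPM, with a log2 fold change of -0.05 (-0.63 to 0.52). CALB1 was at 22.9, 25.8 and 24.8 CPM, all within the empty capsid range, with a log2 fold change of -0.08 (-1.30 to 1.15). Counting 2 of the 3 libraries by strand, which lowers CALB1 in them alone, gave -0.48 (adjusted p = 0.802).

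PCP4 was at 53.4, 37.0 and 41.4 CPM with intmiS1, with a log2 fold change of -0.20 (-1.37 to 0.98). CA8, at 27.5, 11.2 and 27.7 CPM, had a log2 fold change of 0.27 (-1.67 to 2.20), and SLC1A6, at 3.05, 5.70 and 3.93 CPM, one of 0.03 (-1.79 to 1.84). These 3 genes showed no common direction. PCP2 was at 39.1, 14.6 and 19.7 CPM and PPP1R17 at 29.4, 25.0 and 48.7 CPM, and both had 2 of 3 libraries below all empty capsid libraries. Their log2 fold changes were -0.63 (-1.97 to 0.71) and -0.72 (-1.999 to 0.56).

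Set against StufferOnly, intmiS1 had higher DNER. DNER rose by 0.65 on the log2 scale (SE 0.12, adjusted p = 0.0137), so that 1 of 8 members was higher, against 3.4% of all genes. In 5 members (CALB1, SLC1A6, DNER, PCP4 and RORA) every intmiS1 library lay above every StufferOnly library, which was the case for 15.5% of all genes. The other 4 of these 5 had log2 fold changes of 1.09 for CALB1 (SE 0.56, adjusted p = 0.224), 0.59 for SLC1A6 (SE 0.83, adjusted p = 0.665), 1.70 for PCP4 (SE 0.55, adjusted p = 0.0675) and 0.77 for RORA (SE 0.26, adjusted p = 0.0820). All 8 estimates were above 0, where 53.7% of those of all genes were below 0, with a median of 0.93 against -0.06. Of 20 general neuronal genes 18 were also above 0, with a median of 0.78, as were 5 of 5 tested DCN projection neuron genes, with a median of 1.03. Of 14 granule cell genes 7 were above 0, with a median of -0.11. With replicate 1 of miSCA7Stuffer left out of the shared fit, 4 members were higher (CALB1, DNER, PCP4 and RORA), against 8.73% of all genes. The DNER call was lost without intmiS1 replicate 1 or 2 or StufferOnly replicate 2, and without both intmiS1 libraries that came as another kind of table (0.75, adjusted p = 0.233). Microglia and macrophage genes differed in the same comparison, with 15 of 18 lower in intmiS1, against 8.46% of all genes. Of 12 identifiers of oligodendrocyte genes 6 were higher, against the 3.4% given above. The part of these lists in the DNER difference was not tested, nor was whether that difference lies in Purkinje cells.

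Across the groups of Study 2, the mean level was lowest in StufferOnly for 7 of the 8 members. The exception was PPP1R17, at 23.8 ± 16.8 CPM (SD, n = 3) with miSCA7Stuffer and 23.9 ± 14.9 CPM (SD, n = 3) with StufferOnly, which overlapped. This count rested on replicate 1 of miSCA7Stuffer: without it the mean was lowest in StufferOnly for 4 members (CALB1, DNER, PCP2 and PCP4) and in miSCA7Stuffer for the other 4. For DNER the order was 489 ± 48.2 CPM with empty capsid, 456 ± 38.6 CPM with intmiS1, 417 ± 14.96 CPM with miSCA7Stuffer and 291 ± 14.5 CPM with StufferOnly (SD, n = 3 each). Neighbours in that order overlapped between empty capsid and intmiS1 and between intmiS1 and miSCA7Stuffer, and did not overlap between miSCA7Stuffer and StufferOnly. For CALB1 miSCA7Stuffer came first at 34.1 ± 35.9 CPM, a mean set by replicate 1, before empty capsid at 25.8 ± 3.84 CPM, intmiS1 at 24.5 ± 1.47 CPM and StufferOnly at 11.5 ± 1.88 CPM (SD, n = 3 each). Study 1 and Study 2 tables were counted differently, so levels are not compared between the studies.

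The difference between the effects was tested in a fit of all 22 libraries. AAV.miS1 and StufferOnly have separate controls. EdgeR found a difference in 0 of 8 members and in 0% of all genes, and DESeq2 in none of the members. At an unadjusted p under 0.05 there was no member, against 1.19% of genes lower and 1.61% higher. The estimates were -1.80 for SLC1A6 (95% interval -4.03 to 0.43) and -0.93 for CALB1 (-2.72 to 0.86). With Study 1 counted without strand, as in Study 2, the CALB1 estimate was -0.49 (adjusted p = 0.99996). With the strand kept, 4 of the 8 estimates were below 0, against 41.2% of those of all genes. For DNER the difference of effects was 0.22 (-0.34 to 0.78).

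The AAV.miS1 effect lay below the intmiS1 effect in all 8 estimates, and in 47.9% of those of all genes, with a median difference of -1.06 against 0.04 for all genes. It also lay below in 19 of 20 general neuronal genes (median -0.96) and in 14 of 14 granule cell genes (median -1.73). EdgeR called none of the 8 members and 0% of all genes. At an unadjusted p under 0.05 there were 2 members, against 5.06% of genes lower. These were CALB1 with a difference of -2.12 (95% interval -3.92 to -0.31, adjusted p = 0.228) and SLC1A6 with -2.49 (-4.75 to -0.22, adjusted p = 0.252), and DESeq2 called none. For CALB1 part of this difference moved with strand: with Study 1 counted without strand, as in Study 2, it was -1.60 (adjusted p = 0.289), and the AAV.miS1 change against vehicle itself was -1.69 (adjusted p = 0.0498). DNER differed by -0.52 (-1.08 to 0.04) and RORA by -0.96 (-1.998 to 0.07). The estimates for PCP2, PCP4, CA8 and PPP1R17 were -0.59, -1.16, -1.57 and -0.02, each with an interval that spans 0.

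Of 24 further genes known from Purkinje cells, 22 were tested in Study 1, and 2 were lower with AAV.miS1, against the 0.284% of all genes given above. INPP5A, an inositol phosphate phosphatase, went from 74.7 ± 14.5 CPM (SD, n = 4) to 46.7 ± 7.74 CPM (SD, n = 6) and was lower in every library, with a log2 fold change of -0.72 (SE 0.18, adjusted p = 0.0394). In all, 21 of the 22 estimates were below 0, with a median of -1.06. The exception was PLCB3, a phospholipase C, with a log2 fold change of 1.02 (SE 0.31, adjusted p = 0.0686).

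In Study 2 all but 1 of these genes could be tested. Between StufferOnly and empty capsid 1 of 23 was called, PLCB3, which rose by 0.83 on the log2 scale (SE 0.15, adjusted p = 0.0194), against the 11.6% of all genes higher. The median of the 23 was -0.68, and 19 were below 0. Between intmiS1 and StufferOnly, PLCB3 fell by 1.04 (SE 0.16, adjusted p = 0.00982) and HOMER3, a scaffold of metabotropic glutamate receptors, fell by 1.05 (SE 0.21, adjusted p = 0.0155), against 8.46% of all genes lower. None of the 23 was called by edgeR for miSCA7Stuffer against empty capsid, where the smallest p belonged to HOMER3 with a log2 fold change of 0.57 (adjusted p = 0.170), FOXP2 with -0.84 (0.192) and SHH with -1.50 (0.221). None was called for miSCA7Stuffer against StufferOnly, with PLCB3 at -0.61 (0.265) and GNG13 at 2.52 (0.401). None was called for intmiS1 against empty capsid, with HOMER3 at -0.44 (0.576), INPP5A at -0.48 (0.596) and PLCB3 at -0.21 (0.695). For the effect of AAV.miS1 minus that of intmiS1 none was called either, with PLCB3 at 1.15 (0.161) and ITPR1 at -1.01 (0.276).

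The summed level of the members followed that of neurons in general only in part. DNER was left out of this sum, because it holds most of the members' counts. It also did not always follow the rest. In AAV.miS1 replicate 1 DNER was at 198 CPM, while the other 7 members came to 20.5 CPM. With miSCA7Stuffer, replicates 2 and 3 held 401 and 422 CPM of DNER beside general neuronal sums of 1107 and 1304 CPM. The other 7 members came to 3.20% to 4.86% of the summed CPM of 20 general neuronal genes in vehicle libraries and to 2.42% to 9.01% in AAV.miS1 libraries, so the groups overlapped. The share was 2.76% to 4.25% with empty capsid, 2.83% to 3.19% with intmiS1 and 2.16% to 3.75% with StufferOnly, which also overlapped. In miSCA7Stuffer it was 5.39%, 7.202% and 8.91%, above all empty capsid libraries, and the general neuronal genes of that group had a median log2 fold change of -1.04. With DNER in the sum, the share in replicate 1 of miSCA7Stuffer was 11.4%, within the 7.90% to 11.8% of empty capsid, and in replicates 2 and 3 it was 43.4% and 41.3%. The sum of all 8 members came to 9.95% to 16.3% with vehicle and 7.39% to 96.1% with AAV.miS1, with replicate 1 at the top. It came to 7.499% to 10.9% with intmiS1 and 7.27% to 13.5% with StufferOnly, so that these groups overlapped their controls as well. Because both sums come from the same libraries, these shares are a description.

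**Figure D3:**
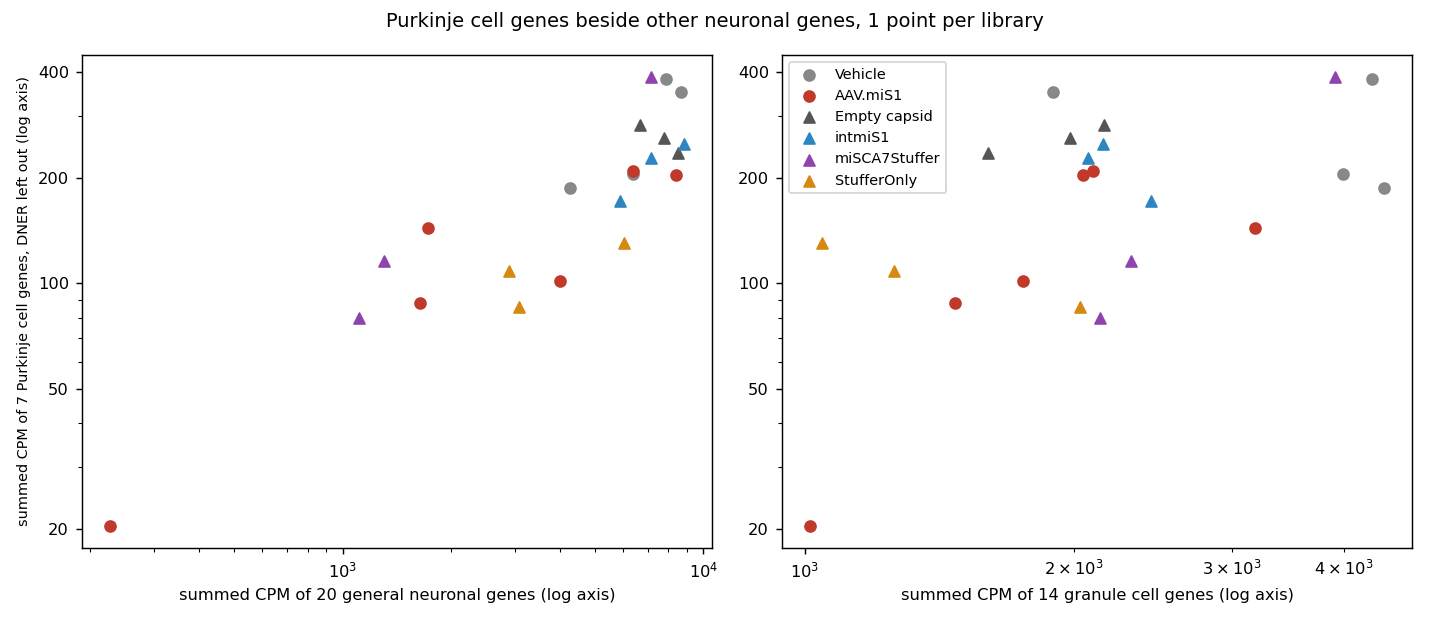
Summed CPM of 7 Purkinje cell genes without DNER (y axis, log scale) against the summed CPM of 20 general neuronal genes (left) and of 14 granule cell genes (right), both on log axes, with 1 point per library and triangles for Study 2. AAV.miS1 replicate 1 lies alone at the lower left of the neuronal plot, at 227 CPM, and replicates 2 and 3 of miSCA7Stuffer lie at 1107 and 1304 CPM, far from replicate 1 at 7169 CPM.

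Among themselves the members varied together to different degrees. Over the 28 pairs, Pearson r of log2 CPM across the 10 Study 1 libraries ran from 0.26 to 0.96 with a median of 0.76. Across the 10 Study 2 libraries counted by featureCounts it ran from 0.30 to 0.91 with a median of 0.71. The closest pairs in both studies were PCP2 with PCP4 (0.96 and 0.91) and CALB1 with SLC1A6 (0.94 and 0.90). CA8 with SLC1A6 was the loosest pair of Study 1, at 0.26, and rose to 0.88 without vehicle replicate 2, where CA8 was at 0. Leaving out AAV.miS1 replicate 1 instead lowered the Study 1 median to 0.47, with a range of -0.05 to 0.94, so much of the shared variation of Study 1 rested on that library. In Study 2 the loosest pair was SLC1A6 with DNER, at 0.30, and it was at 0.68 without replicate 1 of miSCA7Stuffer, with a median of 0.78 over all pairs. The libraries share treatment, depth and tissue composition across genes, so these values are descriptions with no test.

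**Figure D4:**
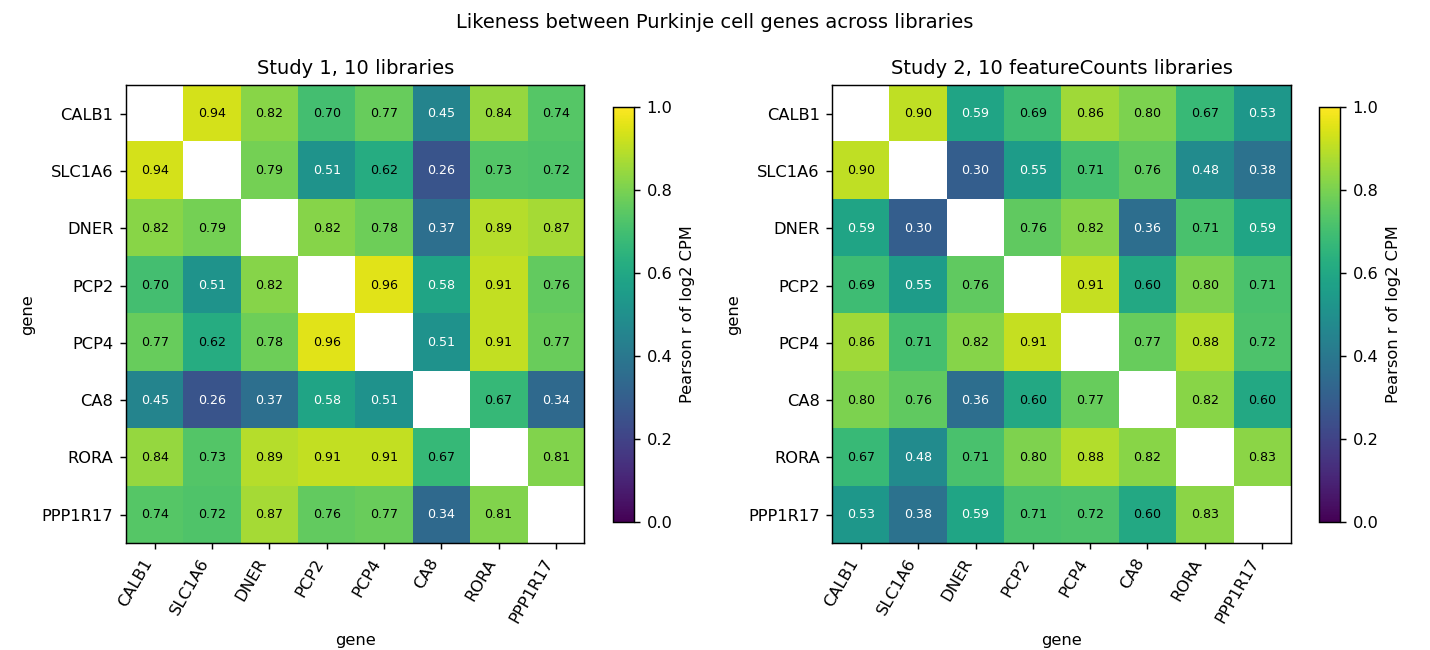
Pearson r of log2 CPM between each pair of Purkinje cell genes (both axes) over the 10 Study 1 libraries (left) and the 10 featureCounts libraries of Study 2 (right), with the value in each cell and on the colour scale. PCP2 with PCP4 and CALB1 with SLC1A6 are high in both panels, and the CA8 row is low in the left panel only, apart from its value of 0.36 with DNER on the right.

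Genes whose pattern was most like the mean log2 CPM of the 8 members were sought by the smaller of their r in the 2 sets of 10 libraries. Of the 13377 genes tested in both sets, only those with a symbol were ranked. The closest 6 were RUSC2 (0.96 in both), LINGO1 (0.95 and 0.96), SCRN1 (0.95 and 0.96), AFF2 (0.95 and 0.95), CLIP3 (0.95 and 0.95) and ADGRL1 (0.94 and 0.96). The median gene had r of -0.03 and 0.08. These r were not taken without AAV.miS1 replicate 1, so how far they rest on that library was not tested. LINGO1 and ADGRL1 encode neuronal surface proteins, an inhibitor of axon growth and a latrophilin receptor. None of the 6 belongs to a marker list used here.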

How the data were processed

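Total RNA of DCN was measured in 22 libraries. Values are read counts per gene as deposited, from STAR 2.6.0c per the submitters' processing notes and, for 10 libraries of Study 2, from featureCounts per the file headers. No source used here names the genome build. Study 1 used the reverse-strand column, and the 2 intmiS1 libraries with STAR tables the unstranded one. Of STAR counts, 63.6% to 72.0% in Study 1 and 68.4% and 71.2% in those 2 named no gene and were left out. Another 12 libraries of small RNA were not analysed here.

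Groups follow the treatment labels. Tests came from edgeR 4.0.16 under R 4.3.3 (quasi-likelihood, TMM, filterByExpr with minimum count 10 and total 15, Benjamini-Hochberg at 0.05), with DESeq2 1.42.0 as an alternative. SEs were derived from the F statistic. CPM values are after TMM. Fold changes used a prior count of 0.125 and correlations a prior count of 2. A count of 0 was bounded at 3 counts. The edgeR steps were tested on simulated data. Other alternatives were RLE scaling, no filter, other columns, fewer groups, a replicate block and leaving out single libraries. Gene lengths were not used, so levels are not compared between genes.

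The members and lists were chosen with earlier results of these data known. Named were all 8 members, other Purkinje genes called in a comparison (otherwise the 3 smallest p), and the 6 genes most like the members. The values of 1 gene that this rule names are not reported here.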

Additional observations from a re-analysis of the deposited data

How the results depend on the processing

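Over 936 alternatives of the 64 log2 fold changes (8 members in 8 comparisons), 841 kept direction and call, 27 lost a call, 29 gained one and 39 changed sign. The causes were not tested, except that leaving out libraries or groups changes the number of samples by construction. For AAV.miS1 against vehicle, 0 members were called with the unmapped-read set as a term and within the set over 15%, and 0 to 3 when single libraries were left out. The set under 15% also gave 0, but with 1 vehicle library this says nothing on the calls. For StufferOnly against empty capsid, members called were 4 with DESeq2, 5 with only the 2 groups, 7 without replicate 1 of miSCA7Stuffer in the shared fit (added after seeing the data) and 0 to 2 without single libraries. For intmiS1 against StufferOnly they were 3 with DESeq2, 4 in the same added fit, 0 without the 2 STAR libraries and 0 to 1 without single libraries. For miSCA7Stuffer they were 0 to 6 without single libraries against empty capsid, and 1 with DESeq2 against StufferOnly. With a replicate block, 4 members were called for StufferOnly against empty capsid (DNER, PCP2, PCP4 and RORA) and 3 for intmiS1 against StufferOnly (DNER, PCP4 and RORA), and CA8 for miSCA7Stuffer against empty capsid was -0.71. For miSCA7Stuffer and StufferOnly all 3 same-numbered pairs had a correlation over 0.1 (0.177 to 0.436), and the block called 0 members between them, as without it. For the other 5 pairs of groups the numbers were not shown to pair the libraries, with 2 of 15 same-numbered correlations over 0.1, and 6 of 12 libraries matched best with their own number. Study 1 labels give no shared numbers.

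Sign changes were small in most cases. PPP1R17 became 0.18 for AAV.miS1 within the set over 15%, and PCP4 0.19 within the set under 15%. PPP1R17 for miSCA7Stuffer against StufferOnly became 0.0093 with DESeq2, 0.0087 with RLE scaling, 0.0093 with 2 groups, and -0.66 to 0.52 without single libraries. For AAV.miS1 minus intmiS1 it became 0.0037 with RLE, 0.011 without a filter, 0.011 with unstranded counts, and -0.60 to 0.31 without single libraries. SLC1A6 for intmiS1 against empty capsid became -0.069 without the STAR libraries. Ranges without single libraries that cross 0 were, for miSCA7Stuffer against empty capsid, -2.35 to 0.64 for CA8, -0.99 to 0.79 for CALB1, -1.42 to 0.11 for PCP4 and -0.76 to 2.07 for SLC1A6. Against StufferOnly they were -1.32 to 1.56 for CA8, -0.16 to 0.32 for RORA and -0.082 to 2.64 for SLC1A6. For intmiS1 against empty capsid they were -0.19 to 0.069 for RORA and -0.22 to 0.19 for SLC1A6. For AAV.miS1 minus StufferOnly they were -0.73 to 0.14 for CA8 and -0.27 to 0.086 for RORA, and for AAV.miS1 minus intmiS1 -0.96 to 0.24 for PCP2. Depth limits vehicle replicate 2, in which members other than DNER rest on a few reads.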
